A study of Mus musculus with 6 samples.

Results

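A set of 62 genes was expressed in every library of wild-type (WT) spheroids and had 0 counts in every library labelled LATS1/2 double knockout (dKO). A gene belonged to it when it had at least 1 CPM (a count scaled so that each library has the same total, and so comparable between libraries) in each of the 3 WT libraries and 0 counts in each of the 3 libraries labelled dKO. Of the 48820 genes listed, 12370 reached 1 CPM in each WT library. Among these, 69 had 0 counts in every library labelled dKO, or 0.558%, and 62 remained after 7 genes were set aside by symbol; those 7 are not described here. The reverse pattern, 0 counts in every WT library and at least 1 CPM in each library labelled dKO, was met by 75 genes. Because the levels themselves chose the genes, their difference between the groups is a description and carries no test.

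Both groups were spheroids of 4T1, a mouse mammary carcinoma line used as a model of triple-negative breast cancer, kept in the same serum-supplemented medium. One group of 3 libraries came from WT cells and the other from cells whose genes for the kinases LATS1 and LATS2 were targeted together. The labels name biological replicates and say nothing of separate clones or cultures, so the spread between libraries may be technical. Total counts ran from 40150225 to 49630116 in WT and from 38194478 to 42486146 in the libraries labelled dKO.

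LATS1 and LATS2 are the core kinases of the Hippo pathway. They phosphorylate the coactivators YAP and TAZ, which otherwise enter the nucleus and bind DNA through TEAD factors. TEAD-bound YAP and TAZ are best known for raising transcription, and they are also described as lowering it at some genes. In mammary tumour cells the pathway is known for its links to growth, adhesion and the surrounding matrix.

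The targeted genes gave a mixed check of the labels. Lats1 had 157, 147 and 153 CPM in the WT libraries against 51.6, 53.0 and 48.6 CPM in those labelled dKO. Lats2 went the other way, with 28.2, 30.6 and 22.4 CPM in WT and 86.8, 83.4 and 64.2 CPM in the libraries labelled dKO. Neither gene was at 0, and a transcript level does not show whether an edited gene still makes protein, so the group is called "labelled dKO" throughout. The epithelial identity of the line was present in both groups: 14 epithelial markers, of which only Krt5 was at 0 everywhere, summed to between 6631 and 6732 CPM in WT and between 5461 and 6372 CPM in the libraries labelled dKO. The 19 leukocyte markers summed to between 3.64 and 17.3 CPM in WT and to between 78.4 and 209.6 CPM in the libraries labelled dKO, mostly through Csf1r, while Cd3e, Cd3d, Cd8a, Ms4a1, Nkg7, Ly6g and S100a9 were at 0 in all 6. The 14 fibroblast markers summed to between 219.7 and 436 CPM in WT and between 60.6 and 94.0 CPM in the libraries labelled dKO, mostly through S100a4, with Lum, Thy1 and Dpt at 0. Of 13 endothelial markers 5 were tested, with Flt1 lower and Eng and Egfl7 higher, and of 10 mast cell markers 2 were tested, with Mrgprb2 rising from 0 counts to a mean of 38.5 CPM, at least 145-fold, while Cpa3, Mcpt4 and 5 others were at 0. These marker levels differ between the same groups as the genes described here, and their part in the result was not tested. Fewer cells with a transcript and less transcript per cell cannot be told apart in such bulk libraries.

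Promoter windows, from 250 bases before to 50 after the gene start, were available from RefSeq (GRCm38.p6) for 39 of the 62 genes, or 62.9%. With so many windows missing, a comparison of base composition or motif shares between the set and other genes is void. Each window was searched on both strands for GGAATG, the core letters bound by TEAD factors (CATTCC on the other strand), and for TGANTCA, the AP-1 letters that often lie near TEAD sites. Over all 32851 windows of the same length, 14.7% held the TEAD letters and 7.81% held the AP-1 letters. The following 4 windows were chosen after the search, because each holds a match near the start of a gene described below. They read 5′ to 3′ with the matches in capitals, and no match overlaps another.
Adgra1, chr7:139833924-139834223, plus strand, 2 TEAD matches: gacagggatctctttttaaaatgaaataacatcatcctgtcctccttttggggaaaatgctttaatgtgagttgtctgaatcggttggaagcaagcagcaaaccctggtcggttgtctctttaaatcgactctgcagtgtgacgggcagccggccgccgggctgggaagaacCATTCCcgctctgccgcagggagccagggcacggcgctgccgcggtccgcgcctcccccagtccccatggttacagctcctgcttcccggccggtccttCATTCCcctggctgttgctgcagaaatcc
Shisa2, chr14:59625031-59625330, plus strand, 1 TEAD match: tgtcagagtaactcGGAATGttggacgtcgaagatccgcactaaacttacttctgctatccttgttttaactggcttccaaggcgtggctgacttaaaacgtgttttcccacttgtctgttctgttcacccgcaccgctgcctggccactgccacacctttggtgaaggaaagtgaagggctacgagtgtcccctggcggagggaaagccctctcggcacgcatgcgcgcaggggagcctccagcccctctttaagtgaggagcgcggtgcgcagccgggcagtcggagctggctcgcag
Rhoj, chr12:75308063-75308362, plus strand, 1 TEAD match: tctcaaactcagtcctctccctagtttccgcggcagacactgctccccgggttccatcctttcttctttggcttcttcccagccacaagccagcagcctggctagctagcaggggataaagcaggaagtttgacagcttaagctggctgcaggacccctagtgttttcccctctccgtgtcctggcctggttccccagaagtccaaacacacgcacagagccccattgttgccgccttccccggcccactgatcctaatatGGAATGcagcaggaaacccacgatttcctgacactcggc
Mmp1a, chr9:7463891-7464190, plus strand, 1 AP-1 match: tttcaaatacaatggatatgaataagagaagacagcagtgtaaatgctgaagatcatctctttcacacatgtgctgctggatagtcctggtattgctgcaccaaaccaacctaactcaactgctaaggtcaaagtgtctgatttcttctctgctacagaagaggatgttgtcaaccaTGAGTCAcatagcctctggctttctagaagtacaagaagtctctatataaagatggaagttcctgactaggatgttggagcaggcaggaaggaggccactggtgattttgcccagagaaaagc
A match is a run of letters and not a shown binding site.

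In WT the 62 genes were low to moderate in abundance. Their mean WT level ran from 1.21 to 46.2 CPM with a median of 3.904 CPM, against a median of 34.3 CPM for the 12370 genes expressed in WT. Mean levels of 10 CPM or more were found for 15 genes, 5 to 10 CPM for 9, 2 to 5 CPM for 27 and under 2 CPM for 11. Summed over the set, the WT libraries held 426, 423 and 430 CPM. The lowest values of the deposited table pile up at 4 counts, so a level of 0 was taken to allow up to 12 counts per library, a floor chosen after the values were seen. It averages 0.297 CPM over the libraries labelled dKO, and every fold given below against it is a lower bound that covers counting error only. The bounds ran from 4.08-fold to 155-fold with a median of 13.1-fold, and 42 of the 62 genes were at least 10-fold lower. The values by library and role show the WT symbols of each gene close together for most genes and apart for a few, such as Inmt, Lbp and Ptpn7.

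**Figure D1:**
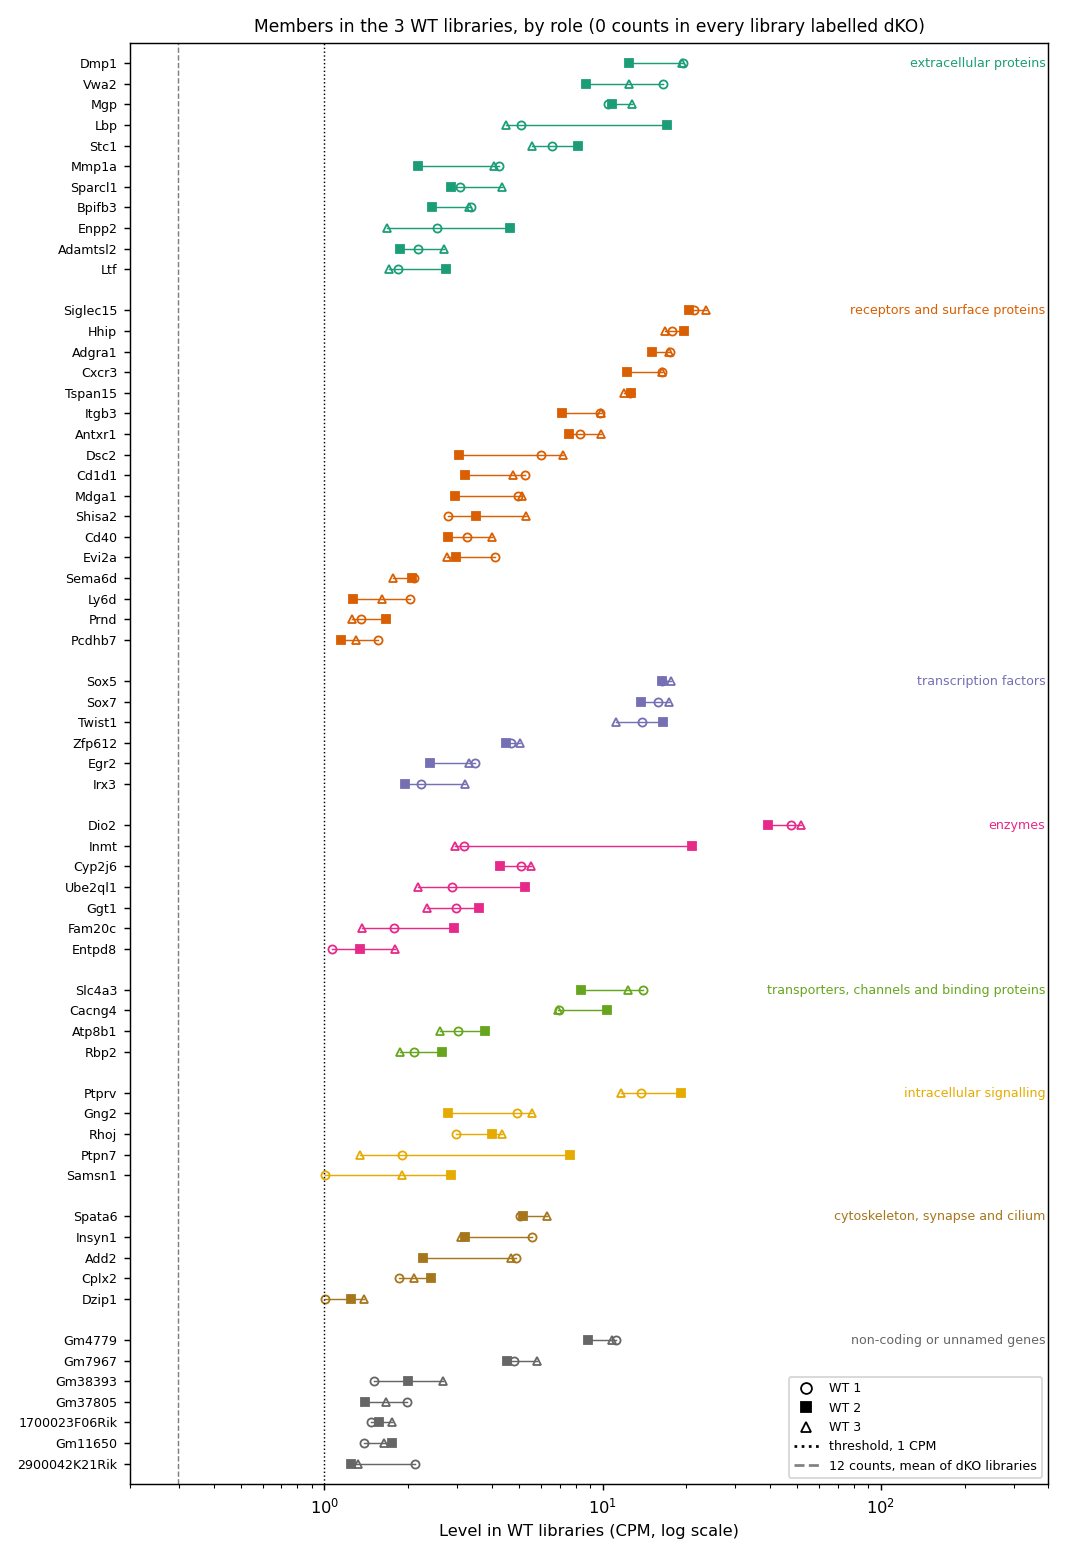
Level of each of the 62 genes in the 3 WT libraries, in CPM on a log axis, grouped by role; symbols mark the library and lines join the lowest and highest. The dotted line is the 1 CPM threshold and the dashed line is 12 counts, on average 0.297 CPM in the libraries labelled dKO, where every gene had 0 counts; Dio2 is highest at 39.4 to 51.6 CPM and Inmt is widest, with WT 2 at 20.9 CPM.

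The share of genes at 0 in every library labelled dKO fell with the WT level. It was 12 of 499 genes at a mean WT level of 1 to 2 CPM (2.40%), 27 of 1264 at 2 to 5 CPM (2.14%), 10 of 1056 at 5 to 10 CPM (0.947%), 14 of 1584 at 10 to 20 CPM (0.884%), 3 of 3132 at 20 to 50 CPM (0.0958%) and 3 of 4835 at 50 CPM or more (0.0620%). These counts are of the 69 genes before the 7 were set aside. A low gene reaches 0 by a smaller fold than an abundant one, so the order follows in part from the rule. Of the 12370 genes, 12170 were at 0 in none of the libraries labelled dKO, 75 in 1 of them, 56 in 2 and 69 in all 3. Within WT such losses of a single library were rare. Of the 12486 to 12550 genes at 1 CPM or more in any pair of WT libraries, 1 was at 0 in WT 1, 1 in WT 2 and 0 in WT 3.

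**Figure D2:**
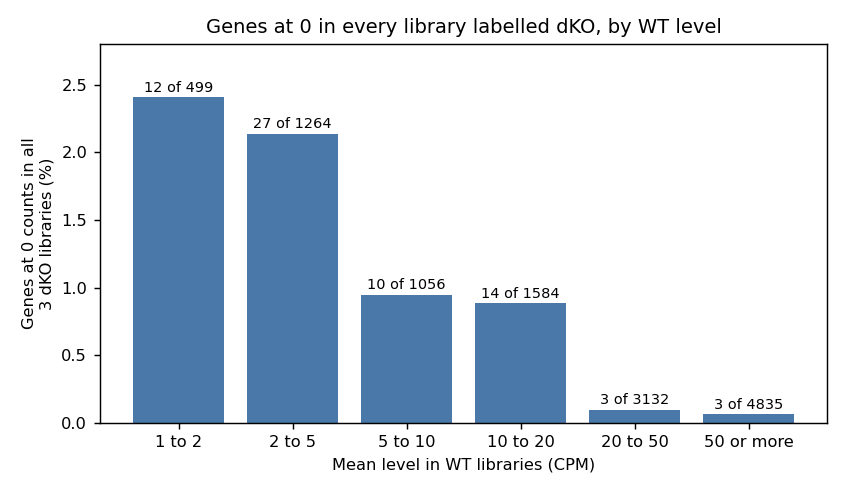
Percentage of WT-expressed genes with 0 counts in all 3 libraries labelled dKO, by mean WT level in CPM; the numbers above the bars are the genes at 0 and all genes in the bin. The share falls from 2.40% in the lowest bin to 0.0620% in the highest.

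Genes on either side of the thresholds had similar values. The lowest WT minimum among the chosen genes was 1.01 CPM for Samsn1 and for Dzip1 and 1.07 CPM for Entpd8. Rimbp2, at 0.971 CPM in its lowest WT library, and Pcdhb15 and Dcpp1, both at 0.914 CPM, had 0 counts in the libraries labelled dKO and fell just short. On the other side, Ndst3, with 9.86 to 11.9 CPM in WT, missed the set through 3 counts in 1 library labelled dKO. Gm8995 missed it through 3 counts and Mgst2 through 4, each in 1 library.

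Among secreted and matrix proteins, 11 genes were in the set, with mean WT levels from 2.09 to 17.1 CPM. Dmp1 (chr5:104202613-104214102), an acidic phosphoprotein of bone and dentin matrix, had 19.4, 12.5 and 19.3 CPM in WT libraries 1, 2 and 3 and was at least 57.4-fold lower in the libraries labelled dKO. Vwa2 (chr19:56874249-56912078), a basement-membrane protein with von Willebrand factor A domains, had 16.5, 8.69 and 12.4 CPM, a bound of 42.2-fold. Mgp (chr6:136872435-136875823), a vitamin K-dependent inhibitor of calcification, had 10.5, 10.8 and 12.8 CPM, a bound of 38.1-fold. WT 2 was the lowest library for Dmp1 and Vwa2 and in the middle for Mgp. Lbp (chr2:158306493-158332852), which carries bacterial lipopolysaccharide to its receptors, had 5.10, 17.0 and 4.51 CPM. Stc1 (chr14:69029238-69041804), a secreted glycoprotein tied to calcium and phosphate handling, had 6.59, 8.14 and 5.55 CPM. Both were highest in WT 2, Lbp by far. Sparcl1 (chr5:104079111-104113733), a matricellular relative of SPARC that lies 88880 bases from Dmp1, had 3.08, 2.84 and 4.36 CPM. The others, between 2.09 and 3.49 CPM on average, were the interstitial collagenase gene Mmp1a, Bpifb3, Enpp2 (autotaxin, which makes lysophosphatidic acid), Adamtsl2 and Ltf (lactoferrin). Mmp1a is annotated as a polymorphic pseudogene and had 4.25, 2.17 and 4.06 CPM.

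Genes that work with set genes of any role, and not only with these secreted proteins, were listed as 65 partners of 17 members. They were chosen by known role once the members were known, and the next counts pool all of them. Of the 46 partners tested, 24 were called lower (52.2%) and 8 higher (17.4%) in the libraries labelled dKO, at an adjusted p under 0.05 by edgeR's quasi-likelihood test. Over all 15807 genes tested, 57.3% were called, 28.7% lower and 28.6% higher. The median log2 fold change was -0.47 for the partners and -0.01 for all tested genes. Spp1 (osteopontin, chr5:104435118-104441050), a secreted phosphoprotein of the same gene cluster as Dmp1, had 2666, 2871 and 2834 CPM in WT and 55.8, 56.8 and 22.7 CPM in the libraries labelled dKO. Its groups did not overlap, and the log2 difference came to -5.96 ± 0.42 (SE; edgeR adjusted p = 6.87e-05). Ibsp, Dspp and Mepe, the other phosphoprotein genes of that cluster, were not above 0.765 CPM in any library and were not tested. Phex, an endopeptidase that acts on peptides of these proteins, rose from 11.5 ± 2.88 to 45.1 ± 23.3 CPM (SD, n = 3; edgeR adjusted p = 0.0129), with the library labelled dKO 3 lowest of its group at 18.2 CPM. Fam20c, the secretory-pathway kinase that phosphorylates them, was itself in the set at 1.77, 2.91 and 1.36 CPM. The enzymes that carboxylate Mgp were lower but present: Ggcx fell from 18.3 ± 1.87 to 11.0 ± 1.20 CPM (SD, n = 3; edgeR adjusted p = 0.00154) and Vkorc1 from 12.8 ± 2.30 to 5.29 ± 0.499 CPM (SD, n = 3; edgeR adjusted p = 0.000314). Of the receptors for the lipid made by Enpp2, Lpar1 fell from 18.2 ± 1.496 to 3.88 ± 0.943 CPM (SD, n = 3; edgeR adjusted p = 1.76e-05) and Lpar6 was also called lower, while Lpar2 rose from 22.7 ± 1.18 to 36.4 ± 4.03 CPM (SD, n = 3; edgeR adjusted p = 0.000983). Stc2, the paralog of Stc1, fell from 0.282, 2.54 and 0.723 CPM in WT to 0 counts in all 3 libraries labelled dKO (edgeR adjusted p = 0.00348). Its WT mean rests on WT 2, and its level in WT 1 lay near the floor.

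Receptors and surface proteins were the most numerous role, with 17 genes at mean WT levels from 1.33 to 21.8 CPM. Siglec15 (chromosome 18), a sialic acid-binding lectin known from osteoclasts and tumour-associated cells, had 21.3, 20.5 and 23.5 CPM in WT and was at least 73.2-fold lower in the libraries labelled dKO. Hhip (chr8:79965851-80058006), a membrane decoy that binds hedgehog ligands, had 17.8, 19.6 and 16.8 CPM, a bound of 60.7-fold. Adgra1 (chr7:139834174-139878088), an adhesion G protein-coupled receptor whose promoter window is printed above, had 17.5, 15.1 and 17.3 CPM, a bound of 55.9-fold. The 3 WT libraries were close for each of these genes. Cxcr3 (chrX:101731535-101734269), a chemokine receptor best known on T cells, had 16.3, 12.3 and 16.3 CPM, and Tspan15 (chr10:62185396-62231251), a tetraspanin that steers the protease ADAM10, had 12.6, 12.7 and 11.9 CPM. Itgb3 (chr11:104608000-104670476), the integrin β3 subunit, had 9.79, 7.15 and 9.89 CPM. Antxr1 (chr6:87133853-87335821), a collagen-binding receptor also used by anthrax toxin, had 8.28, 7.55 and 9.87 CPM. WT 2 was lowest for Cxcr3, Itgb3 and Antxr1. Dsc2 (chromosome 18), a desmosomal cadherin, had 5.98, 3.04 and 7.23 CPM. The other 9, between 1.33 and 4.40 CPM, were Cd1d1 (lipid antigen presentation), Mdga1, Shisa2, Cd40 (a receptor of the tumour necrosis factor family), Evi2a, Sema6d, Ly6d, Prnd and the protocadherin Pcdhb7. Compared per kilobase of exon, Siglec15 was the highest of all 62 genes at 18.8 CPM per kilobase and Dzip1 the lowest at 0.115, and the median was 1.23 against 8.04 for all genes expressed in WT.

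Some other parts of the pathways around these receptors were still expressed, and some were at 0 in all 6 libraries. For Hhip, 9 of 13 hedgehog genes were tested. Of these, 5 were lower (55.6%, against 28.7% of all tested genes) and 2 higher (22.2% against 28.6%). The ligand Dhh fell from 14.5 ± 2.17 to 5.91 ± 1.41 CPM (SD, n = 3; edgeR adjusted p = 0.000587), the transducer Smo from 164 ± 15.8 to 117 ± 15.8 CPM (SD, n = 3; edgeR adjusted p = 0.00451) and the inhibitor Sufu from 64.0 ± 5.04 to 36.0 ± 4.69 CPM (SD, n = 3; edgeR adjusted p = 0.000194). Gli3 and the coreceptor Cdon were also called lower. The receptor Ptch1 rose from 28.9, 25.3 and 27.5 CPM to 38.3, 35.0 and 39.2 CPM (edgeR adjusted p = 0.00398). The transcription factor Gli1 rose from 0.665, 0.872 and 0.361 CPM to 2.54, 2.46 and 2.35 CPM (edgeR adjusted p = 0.00259). Ptch1 and Gli1 are, with Hhip, textbook target genes of hedgehog signalling, so the 3 did not move together. Integrin αv (Itgav), which pairs with β3, was at 203, 189 and 190 CPM in WT and 269.7, 264 and 184 CPM in those labelled dKO, a difference that was not called (edgeR adjusted p = 0.109); without the library labelled dKO 3 it was called higher (edgeR adjusted p = 0.000623). Antxr2, the paralog of Antxr1, fell from 296 ± 6.69 to 45.9 ± 5.77 CPM (SD, n = 3; edgeR adjusted p = 1.42e-07). Of the CXCR3 ligands, Cxcl9 and Pf4 were at 0 in all 6 libraries and Cxcl10 did not exceed 1.87 CPM in any. Traf1, an adaptor of CD40, fell from 117 ± 25.2 to 26.2 ± 1.10 CPM (SD, n = 3; edgeR adjusted p = 2.93e-06), and the CD40 ligand gene was at 0 throughout. Of the 5 CD40 adaptors tested, 2 were lower (40%, against 28.7% of all tested genes), Traf1 and Traf5. Traf2, Traf3 and Traf6 were not called. Of 6 desmosomal partners of Dsc2, all tested, 2 were lower and 2 higher (33.3% each), near the shares of all tested genes. Jup and Pkp3 were lower and Dsp and Pkp2 higher. Dsp, the plakin that anchors keratin to the desmosome, rose from 242 ± 43.8 to 608 ± 52.4 CPM (SD, n = 3; edgeR adjusted p = 2.77e-05), and Jup fell from 401 ± 31.1 to 173 ± 27.2 CPM (SD, n = 3; edgeR adjusted p = 1.97e-05).

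Of the 20 other genes listed for Siglec receptors, their adaptors and the enzymes that make sialylated ligands, 11 were tested, 5 lower and 5 higher (45.5% each, against 28.7% and 28.6% of all tested genes). Siglecg, another receptor of the family, had 0 counts in every WT library and 27.0, 25.4 and 22.4 CPM in those labelled dKO, which is at least 94.0-fold higher. Cd33, also of the family, went the other way, from 25.9, 11.8 and 20.1 CPM in WT to 0, 0.172 and 0.494 CPM (edgeR adjusted p = 0.000173). The sialyltransferase genes St3gal1, from 132 ± 25.9 to 18.9 ± 0.903 CPM (SD, n = 3; edgeR adjusted p = 9.28e-07), and St6gal1, from 85.9 ± 1.73 to 15.6 ± 3.45 CPM (SD, n = 3; edgeR adjusted p = 2.17e-06), both fell. The phosphatase gene Ptpn11 rose from 254 ± 9.78 to 474 ± 32.0 CPM (SD, n = 3; edgeR adjusted p = 1.22e-05). Tyrobp and Hcst, the adaptors through which activating receptors of this kind signal, stayed at or under 0.118 CPM in all 6 libraries.

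The set held 6 transcription factors, with a median mean WT level of 9.29 CPM. Sox5 (chr6:143828425-144781977), an SRY-related factor best known in cartilage, had 16.3, 16.4 and 17.6 CPM in WT and was at least 56.5-fold lower in the libraries labelled dKO. Sox7 (chr14:63943673-63950732), a factor of endothelial and endoderm development, had 15.8, 13.8 and 17.3 CPM, a bound of 52.6-fold. Twist1 (chr12:33957671-33959829), a basic helix-loop-helix factor known for driving epithelial-mesenchymal transition, had 13.9, 16.5 and 11.2 CPM, a bound of 46.5-fold. Sox5 varied little between WT libraries and Twist1 more, with WT 2 highest. Zfp612, a zinc-finger factor, had 4.69, 4.51 and 5.04 CPM. Egr2, an immediate-early zinc-finger factor, and Irx3, an Iroquois homeodomain factor, averaged 3.06 and 2.46 CPM. By family symbol, transcription factors made up 9.68% of the set and 4.09% of the genes expressed in WT. The symbols searched match all 6 of these factors but leave out other families, such as the Tcf genes. The 4.09% is therefore an undercount, and the shares cannot be compared.

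Factors that dimerise with or restrain Twist1 were all lower, 6 of 6 tested, where 28.7% of all tested genes were; these 6 were listed by role after the set was known. Id2, an inhibitor of helix-loop-helix factors, had 68.8, 77.3 and 67.9 CPM in WT and 1.10, 2.51 and 2.00 CPM in the libraries labelled dKO, a log2 fold change of -5.26 ± 0.24 (SE; edgeR adjusted p = 5.18e-07). Id3 fell from 185 ± 16.0 to 15.8 ± 3.76 CPM (SD, n = 3; edgeR adjusted p = 4.28e-07) and Id1 from 85.7 ± 2.76 to 31.4 ± 7.77 CPM (SD, n = 3; edgeR adjusted p = 4.71e-05). The E protein genes Tcf3, Tcf4 and Tcf12 also fell, Tcf3 most, from 245 ± 8.81 to 73.8 ± 16.9 CPM (SD, n = 3; edgeR adjusted p = 1.26e-05). Among other Sox genes, 4 of 17 were tested. Sox4 fell from 655 ± 82.5 to 114 ± 13.9 CPM (SD, n = 3; edgeR adjusted p = 5.32e-07) and Sox9 from 104 ± 4.76 to 43.4 ± 1.07 CPM (SD, n = 3; edgeR adjusted p = 1.52e-06), and both stayed well above 0. Sox15 rose from 0.288 ± 0.121 to 2.001 ± 0.328 CPM (SD, n = 3; edgeR adjusted p = 0.000738). Sox12 was not called (edgeR adjusted p = 0.142). Twist2, the paralog of Twist1, was at 0.645, 0.623 and 1.42 CPM in WT and 0.131, 0.246 and 0 CPM in the libraries labelled dKO. It was called lower (edgeR adjusted p = 0.0268), but not without WT 1 (edgeR adjusted p = 0.0526), WT 3 (0.122) or the library labelled dKO 1 (0.0800), nor with a replicate block (0.0719).

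Dio2 (chr12:90724552-90738438), the deiodinase that converts thyroxine to the active thyroid hormone, was the most abundant gene of the set. It had 47.4, 39.4 and 51.6 CPM in WT and was at least 155-fold lower in the libraries labelled dKO. Of 29 other genes of thyroid hormone transport, metabolism and response, 15 were tested, 9 lower (60% against 28.7% of all tested genes) and 4 higher (26.7% against 28.6%). Klf9, a zinc-finger gene known to respond to the hormone, fell from 26.3, 20.9 and 25.6 CPM to 2.15, 2.09 and 2.24 CPM, a log2 fold change of -3.51 ± 0.16 (SE; edgeR adjusted p = 3.68e-07). Hr, a corepressor that responds to it too, fell from 111 ± 13.7 to 14.5 ± 3.03 CPM (SD, n = 3; edgeR adjusted p = 1e-06). Slc3a2, the heavy chain of amino acid transporters that also carry the hormone, rose from 100.2 ± 5.32 to 249 ± 51.8 CPM (SD, n = 3; edgeR adjusted p = 4e-05). Tg, the thyroid prohormone, rose from at most 0.274 CPM in WT to between 7.30 and 8.88 CPM (edgeR adjusted p = 8.14e-05). Dio3 was at 0 in all 6 libraries and Dio1 did not exceed 0.590 CPM.

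The other 6 enzymes averaged 1.40 to 9.01 CPM. Inmt (chr6:55170626-55175043), which methylates indoleamines, had 3.16, 20.9 and 2.93 CPM, so its mean of 9.01 CPM rests on WT 2. Cyp2j6 (chr4:96516138-96553661), a cytochrome P450 of fatty acid metabolism, had 5.10, 4.28 and 5.51 CPM. Ube2ql1, Ggt1 (which cleaves glutathione outside the cell), Fam20c and Entpd8 (a surface nucleotidase) were lower still. Transporters and channels numbered 4. Slc4a3 (chr1:75546266-75562172), an anion exchanger, had 14.0, 8.37 and 12.4 CPM, and Cacng4 (chr11:107732357-107794557), an auxiliary subunit of calcium channels and glutamate receptors, had 6.99, 10.4 and 6.93 CPM. WT 2 was lowest for Slc4a3 and highest for Cacng4. Atp8b1, a lipid flippase, and Rbp2, a retinol-binding protein, averaged 3.13 and 2.202 CPM. Tmem30a, the subunit flippases need, rose from 155 ± 9.26 to 219.98 ± 18.9 CPM (SD, n = 3; edgeR adjusted p = 0.000897).

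Intracellular signalling genes numbered 5. Ptprv (chr1:135108497-135132594), a receptor-type tyrosine phosphatase gene of bone and testis annotated as a processed transcript, had 13.7, 19.1 and 11.7 CPM. Ptpn7 (chr1:135132700-135145317), a phosphatase of MAP kinases known from lymphoid cells, starts 106 bases from it on the other strand and had 1.89, 7.65 and 1.34 CPM. Both neighbours were highest in WT 2. Gng2 (chr14:19872559-19977627), a G protein γ subunit, had 4.92, 2.79 and 5.55 CPM. Rhoj, a small GTPase of endothelial and tumour cell shape, had 2.96, 3.99 and 4.36 CPM, and the adaptor Samsn1 averaged 1.91 CPM. The 5 genes of cytoskeleton, synapse and cilium were Spata6 (chr4:111719984-111829184), at 5.06, 5.16 and 6.29 CPM, and Insyn1, Add2 (β-adducin), Cplx2 (complexin) and Dzip1, which averaged 1.21 to 3.96 CPM.

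The last 7 were non-coding or had no assigned name, at 1.56 to 10.3 CPM on average. Gm4779 (chrX:101790053-101794423), at 11.1, 8.89 and 10.8 CPM, lies 55784 bases from Cxcr3. Gm11650 (chr11:107793866-107795982), at 1.39, 1.74 and 1.64 CPM, overlaps the start of Cacng4 on the opposite strand. These 2 pairs, with Dmp1 and Sparcl1 and with Ptprv and Ptpn7, were the 4 pairs of set genes within 100 kb of each other. By annotation, 56 of the 62 genes were protein coding (90.3% against 88.7% of the genes expressed in WT). The median gene spanned 17595 bases (20439 for genes expressed in WT), with 3638.5 exonic bases (4238) and 7.5 exons (8). Chromosome 2 held the most, 7 genes (11.3% against 8.28%), and chromosome 14 held 5 (8.06% against 3.40%). No gene of the set lay on chromosome Y or in the mitochondrial genome.

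Reads of an overlapping gene could be counted for either gene, since the use of strand is not given in the sources used here. Among the 62 genes, 29 overlapped another annotated gene, 12 of them on the same strand. Of the 47 overlapping genes in the table, 9 had any count in a library labelled dKO and 2 had at least 1 CPM in each: Nf1, which contains Evi2a, and the pseudogene Gm12960, within Spata6. No overlapping gene was higher in the libraries labelled dKO by as much as 50% of the WT level of the set gene it overlaps. The nearest case was Prn, the read-through gene of Prnp and Prnd, at 0 to 0.0213 CPM in WT and 0.183, 0.197 and 0.259 CPM in the libraries labelled dKO, below the floor. A few overlapping genes fell with their partner and were singled out after their values were seen. Gm38393 (chr7:59974149-60005064) lies in the imprinted Snrpn region, where Snrpn fell from 12.7, 15.3 and 10.7 CPM to 0, 0.172 and 0.0941 CPM (edgeR adjusted p = 4.8e-06) and the host transcript Snhg14 from 7.68, 8.24 and 6.25 CPM to 0.655, 0.566 and 0.541 CPM (edgeR adjusted p = 4.44e-06). The transcript 2900042K21Rik (chr1:189210361-189211013) lies within the potassium channel gene Kcnk2, which fell from 32.3 ± 1.76 to 0.832 ± 0.456 CPM (SD, n = 3; edgeR adjusted p = 1.9e-06). Reads of such partners and of the set gene cannot be told apart.

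Chromosomal neighbours of the set that were called were mostly lower. Of 381 other annotated genes within 100 kb of a set gene, 138 were tested: 70 were called lower (50.7%, against 28.7% of all tested genes), 27 higher (19.6% against 28.6%) and 41 neither. Their median log2 fold change was -0.74. Within 50 kb, 46 of 76 tested neighbours were lower (60.5%) and 9 higher (11.8%). From 50 to 100 kb, 24 of 62 were lower (38.7%) and 18 higher (29.0%), and from 100 to 250 kb, 71 of 181 were lower (39.2%) and 36 higher (19.9%). Neighbours at 1 CPM or more in each WT library were lower in 55 of 98 cases (56.1%), against 33.8% of all genes passing that threshold. Without relatives of set genes, 60 of 125 neighbours were lower (48.0%). These shares are descriptions: neighbouring genes can share reads, and the set was chosen on the same libraries.

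**Figure D3:**
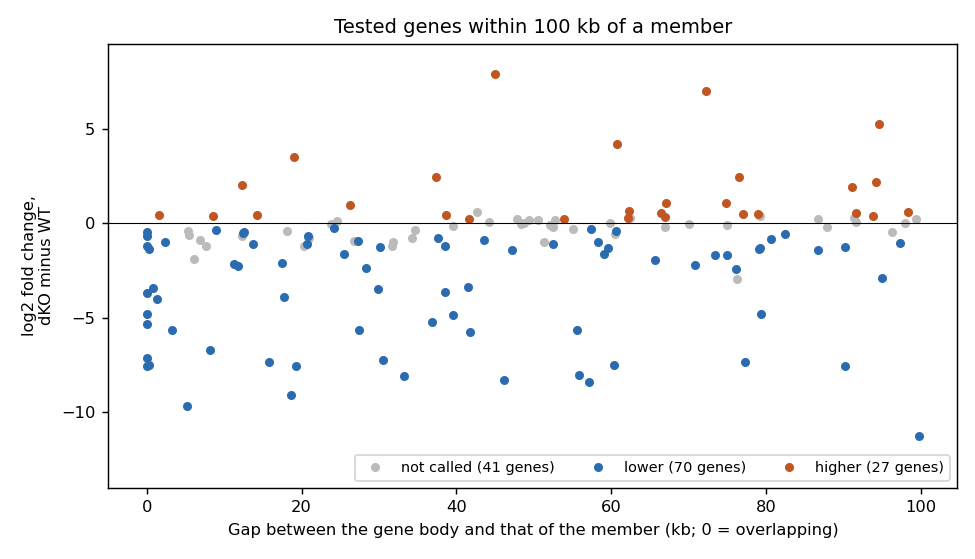
Log2 fold change (labelled dKO minus WT) of each tested gene within 100 kb of a set gene, against the gap between the gene bodies in kb; colours give the edgeR call. The 70 genes called lower crowd towards short gaps, and 9 of the 27 called higher lie within 50 kb.

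Single loci differed in what lay beside the set gene. Mmp9, the gelatinase gene (chr2:164940780-164955850), lies 50 to 100 kb from Cd40. It fell from 767, 593 and 719 CPM to 0.419, 0.172 and 0.259 CPM, a log2 fold change of -11.27 ± 0.22 (SE; edgeR adjusted p = 1.13e-08). Slc12a5, a chloride cotransporter gene between them, fell from 93.9, 73.7 and 85.2 CPM to 0.471, 0.320 and 0.188 CPM (edgeR adjusted p = 4.16e-08). Opposite cases lay within 100 kb of Atp8b1 and Inmt, where the tRNA synthetase genes Nars, from 112 ± 4.23 to 468 ± 17.5 CPM (SD, n = 3; edgeR adjusted p = 8.78e-08), and Gars, from 111 ± 3.25 to 420.5 ± 26.6 CPM (SD, n = 3; edgeR adjusted p = 1.31e-07), rose. Nars lies within 50 kb of Atp8b1, and Gars lies 50 to 100 kb from Inmt. Other loci were singled out after their values were seen. Bpifb4, which lies 5216 bases from Bpifb3, fell from 101, 122 and 105 CPM to 0.236, 0.172 and 0 CPM (edgeR adjusted p = 2.98e-07). Lgr6, a receptor for R-spondins that lies 3221 bases from Ptprv, fell from 89.7, 129 and 74.6 CPM to 2.46, 2.63 and 0.800 CPM (edgeR adjusted p = 6.13e-05). Chst2, a sulfotransferase gene 739 bases from Gm37805, fell from 36.8 ± 2.803 to 3.46 ± 1.45 CPM (SD, n = 3; edgeR adjusted p = 1.16e-05). Around 1700023F06Rik, 6 of 9 neighbours within 100 kb were called lower: Fmnl1, Map3k14, Hexim2, Hexim1, Acbd4 and Plcd3. Of the others, 1 was tested and not called, and none was called higher. None of the 6 called lower was below 2.78 CPM in any library. This locus had the most neighbours called lower of any set gene, while Ube2ql1, with 5 neighbours, had 0. Over all tested genes, 28.7% were called lower.

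Gene families were treated the same way. Relatives, genes whose symbol shares its stem with a set gene, numbered 261 from 37 stems, and a shared stem is not always a shared family. Of the 148 tested, 75 were lower (50.7%, against 28.7% of all tested genes), 30 higher (20.3% against 28.6%) and 43 neither. The median log2 difference was -0.59, against -0.01 for all tested genes. The set holds 4 cadherins and adhesion receptors by symbol (Siglec15, Itgb3, Dsc2 and Pcdhb7), 6.45% against 0.421% of the genes expressed in WT. The symbols searched do not cover every adhesion gene, so both shares may be undercounts. The beta protocadherins, adhesion proteins encoded side by side on chromosome 18, were lower nearly throughout: besides Pcdhb7, 12 of 13 tested were lower and none higher. Pcdhb7 itself was low, at 1.55, 1.15 and 1.30 CPM. Pcdhb22, the most abundant, fell from 24.6, 18.0 and 22.7 CPM to 1.68, 0.664 and 1.27 CPM (edgeR adjusted p = 5.46e-06). Pcdhb21 fell from 15.5, 8.39 and 12.3 CPM to 0.183, 0 and 0.424 CPM (edgeR adjusted p = 0.000157). Pcdhb15 had 0 counts in the libraries labelled dKO and missed the set by its WT level alone. Reads of these similar genes can be split between them. Leaving them out, 63 of 135 tested relatives were lower (46.7%) and 30 higher (22.2%).

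**Figure D4:**
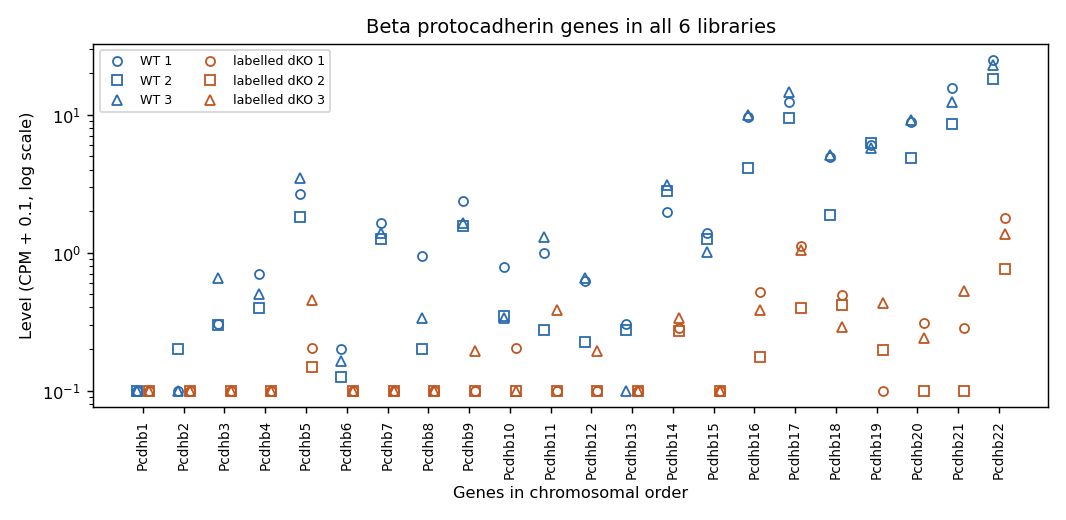
Level of the 22 beta protocadherin genes in all 6 libraries, in CPM plus 0.1 on a log axis, in chromosomal order; blue symbols are WT and orange symbols are libraries labelled dKO. Pcdhb22 drops from 18.0 to 24.6 CPM in WT to 0.664 to 1.68 CPM, and Pcdhb7 and Pcdhb15 drop to 0.

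Matrix metalloproteinases followed in part. Of 14 tested relatives of Mmp1a, 9 were lower (64.3%), 2 higher (14.3%) and 3 neither. Over all tested genes, 28.7% were lower and 28.6% higher. Beside Mmp1a on chromosome 9, Mmp3 (stromelysin, chr9:7445822-7455975) fell from 172, 239.9 and 162 CPM to 2.59, 2.11 and 0.871 CPM, a log2 fold change of -6.71 ± 0.38 (SE; edgeR adjusted p = 8.98e-06). Mmp10 fell from 7.18 ± 1.29 to 2.40 ± 0.388 CPM (SD, n = 3; edgeR adjusted p = 0.000491) and Mmp1b from 2.34 ± 0.408 to 0.447 ± 0.317 CPM (SD, n = 3; edgeR adjusted p = 0.00792). In the same cluster Mmp12 rose from 0, 0 and 0.149 CPM to 1.49, 1.94 and 2.75 CPM (edgeR adjusted p = 0.00142). Semaphorins were divided, with 8 lower (50%) and 6 higher (37.5%) of 16 tested. Sema3e, a secreted guidance protein, rose from 21.6, 19.3 and 20.9 CPM to 671, 672 and 652 CPM, a log2 fold change of 5.00 ± 0.08 (SE; edgeR adjusted p = 5.56e-09), while Sema6d was at 0. Among phosphatase relatives of Ptpn7, 5 were lower and 5 higher of 15 (33.3% each), close to the shares of all tested genes. Ptpn21 rose from 60.3 ± 5.56 to 189 ± 4.52 CPM (SD, n = 3; edgeR adjusted p = 5.96e-07). Siglec1 fell from 1.25, 1.30 and 1.57 CPM to 0, 0.0984 and 0.188 CPM (edgeR adjusted p = 0.00313).

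**Figure D5:**
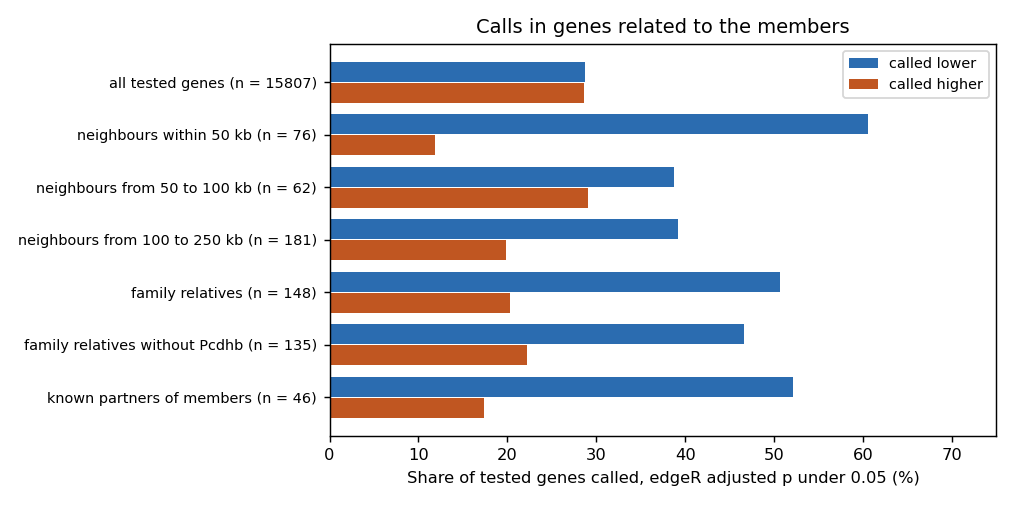
Share of tested genes called lower or higher in the libraries labelled dKO (edgeR adjusted p under 0.05) among all tested genes, neighbours of set genes by distance, relatives by symbol and known partners; n is the number tested. Lower calls reach 60.5% within 50 kb, against 28.7% of all tested genes.

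WT 2 was compared with the other WT libraries because it had stood apart in an earlier analysis. Of the 62 genes, 5 were at least 2-fold higher there than in the mean of WT 1 and WT 3 (8.06%), against 1.27% of all genes expressed in WT and 2.32% of those under 20 CPM. Another 2, Dsc2 and Add2, were at least 2-fold lower (3.23%, against 0.930% and 2.48%). The genes under 20 CPM were not matched in level to the set: 1584 of them were at 10 to 20 CPM, and the set had a median of 3.904 CPM. Inmt had the widest gap of the set, followed by Ptpn7 and Lbp, and the other two were Enpp2 and Ube2ql1. WT 2 was the lowest WT library for 30 genes (48.4%, against 41.8% of genes expressed in WT) and the highest for 20 (32.3% against 40.5%). The median log2 ratio of WT 2 to the other WT libraries was -0.17 for the set and -0.01 for all genes expressed in WT. WT 2 was also the WT library with the highest summed fibroblast markers (436 CPM) and leukocyte markers (17.3 CPM); their part in these differences was not tested. Without WT 2 the rule would take 71 genes.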

How the data were processed

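RNA from 4T1 spheroids was sequenced in 3 samples labelled WT and 3 labelled LATS1/2 dKO. The submitters' processing notes name HISAT2 2.2.1, StringTie 2.2.1 and the GRCm38/mm10 build. The counting step, annotation release and strand setting were not given in the sources used here. What the authors deposited is a table of estimated counts per gene, without normalization, with 38194478 to 49630116 counts per library. Gene symbols and positions were taken from GENCODE M21 (48144 identifiers matched; the rest held 0.0293% of counts), and CPM was computed from column totals.

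Counts were rounded and tested with edgeR 4.0.16 (R 4.3.3; filterByExpr, TMM, quasi-likelihood test, Benjamini-Hochberg adjustment over 15807 genes, genotype as the only term), after checking the code on simulated data. All 62 genes of the set passed the filter, through their WT libraries alone. Alternatives were DESeq2 1.42.0, other scalings and filters, a replicate block, and leaving out libraries. The labels do not say that samples were grown separately, so p-values reflect only how far these samples vary, possibly for technical reasons.

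The members and gene lists were chosen with earlier results of these data known, partners and roles by known function after the members were known, and the floor of 12 counts after values were seen. Genes given by library were the 25 most abundant with an assigned name, members of a list, members within 100 kb of another, and those nearest the thresholds; of neighbours, relatives and lists, the 2 with the smallest adjusted p in each direction were named. Other genes named beside these were chosen after their values were seen.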

Additional observations from a re-analysis of the deposited data

How the results depend on the processing

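The number of genes in the set was 96 with a WT minimum of 0.5 CPM, 20 with a minimum of 5 CPM and 160 when up to 12 counts were allowed in each library labelled dKO. Leaving out 1 library gave 65 to 84 genes. Neighbours called lower numbered 46 within 50 kb and 141 within 250 kb, and those called higher 9 and 63, since the windows hold fewer or more genes. Counting overlaps on the same strand alone gave 12 members in place of 29. Leaving out 1 library gave 3973 to 4581 genes called lower, 4049 to 4637 called higher, 63 to 69 neighbours lower and 70 to 79 relatives lower. Deviations from the group mean were little correlated between WT and labelled dKO samples of the same replicate number (-0.0602, 0.0483 and 0.0821). Whether samples were handled in pairs cannot be told from this. With a replicate block, 4320 genes were lower and 4338 higher. It gave 66 neighbours lower and 25 higher, 75 relatives lower and 30 higher, and 24 partners lower and 8 higher. Of the other values under alternatives, 1371 were unchanged. Most were of single genes that kept their direction and side of the threshold, and the rest were WT levels and counts of partners. Among the single-gene values, 11 lost the call and 3 gained one, in Adam10, Cxcl10, Gm12960, Itgav, Setdb1 and Twist2. The cause was not tested. Cxcl10 was called without WT 3 (edgeR adjusted p = 0.0425). Shares of promoters past a CpG threshold are compared at neither setting, because too few members have a promoter window. Depth sets how low a level can be told from 0: a library labelled dKO at 0 counts allows 0.282 to 0.314 CPM.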

Other observations

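Chromatin regulators known for gene silencing were listed beside the set, with earlier results known. All 35 Polycomb genes were tested, 17 lower (48.6%) and 6 higher (17.1%) in the libraries labelled dKO, where 28.7% of all tested genes were lower and 28.6% higher. Phc2, a subunit of Polycomb repressive complex 1, fell from 345 ± 39.7 to 121 ± 10.4 CPM (SD, n = 3; edgeR adjusted p = 2.39e-06), and Cbx6, its chromodomain reader, fell from 328 ± 5.22 to 152 ± 27.7 CPM (SD, n = 3; edgeR adjusted p = 4.1e-05). Pcgf6 rose from 26.1 ± 0.483 to 51.0 ± 2.76 CPM (SD, n = 3; edgeR adjusted p = 2.16e-05), and Bap1, a deubiquitinase of histone H2A, also rose. Ezh2, the histone methyltransferase of Polycomb repressive complex 2, was at 66.1 ± 9.53 and 57.7 ± 7.88 CPM (SD, n = 3) and was not called (edgeR adjusted p = 0.206).

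Of 29 histone deacetylase and corepressor genes, 26 were tested, 15 lower (57.7%) and 4 higher (15.4%), against the same shares of all tested genes. Hdac4 fell from 46.3 ± 2.90 to 13.8 ± 1.53 CPM (SD, n = 3; edgeR adjusted p = 2.71e-06), and Hdac5 was lower too, while Gatad2a was higher. Setdb1 was called higher (edgeR adjusted p = 0.02001), but not without WT 1 (0.0880), WT 3 (0.0593) or the library labelled dKO 1 (0.0510). Of 12 DNA methylation genes, 11 were tested, 3 lower and 3 higher (27.3% each), close to the shares of all tested genes. The de novo methyltransferase gene Dnmt3b rose from 4.18 ± 1.01 to 14.1 ± 1.87 CPM (SD, n = 3; edgeR adjusted p = 0.000156) and Mbd1 was higher, while Uhrf1 was lower. Dnmt1, the maintenance enzyme, was at 255 ± 19.7 and 234 ± 15.3 CPM (SD, n = 3) and was not called (edgeR adjusted p = 0.176). No measure of chromatin or DNA methylation was analysed here.

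Among the epithelial markers, 6 were lower and 5 higher of 13 tested, beside 28.7% lower and 28.6% higher over all genes. Epcam fell from 791 ± 25.9 to 289.5 ± 14.0 CPM (SD, n = 3; edgeR adjusted p = 4.68e-07) and Esrp1 was lower, while Cdh1 (E-cadherin) rose from 410.1 ± 14.1 to 865 ± 61.3 CPM (SD, n = 3; edgeR adjusted p = 3.71e-06) and Krt19 from 103 ± 6.01 to 321 ± 48.7 CPM (SD, n = 3; edgeR adjusted p = 3.28e-06). Of the fibroblast markers 6 were tested, with Pdgfra, Pi16 and 2 others lower and Postn and Col1a2 higher, and the 3 leukocyte markers tested, Csf1r, Cd68 and 1 other, were higher.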
